A study of Mus musculus with 16 samples.

Results

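Ntrk2, Ntrk3, Ngfr and Sort1, the genes of 3 neurotrophin receptors and of sortilin, were followed by RNA-seq in mouse dorsal root ganglia, the clusters of sensory neurons beside the spinal cord. The 4 genes were chosen by symbol from the 53379 gene IDs measured, and each had 1 entry in each of 16 libraries. The mice were naive, aged 8 to 12 weeks and of C57BL/6J background. All of them, female and male, carried Nav1.8Cre, a Cre recombinase driven by the promoter of the sodium channel gene Scn10a, and Rosa26fstrap, which after Cre recombination makes EGFP-L10a, a ribosomal protein fused to a green fluorescent protein. Every pool combined ganglia from 3 mice of the same sex, with 4 pools per sex and 24 mice in all. Each pool gave a library of total RNA of the whole ganglion (IN) and a library of the RNA that came down with the tagged ribosomes (IP), so that there were 4 groups of 4 libraries. The tag marks neurons in which the Scn10a promoter is or was active, most of them pain-sensing neurons (nociceptors), and IN holds every cell of the ganglion. A pulldown from mice without the tag was not analysed here.

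Neurotrophins are secreted growth factors that sensory neurons need to survive and to keep their identity. Ntrk2 encodes TrkB, the receptor tyrosine kinase for BDNF and NT-4, and Ntrk3 encodes TrkC, the receptor tyrosine kinase for NT-3. TrkC marks muscle-sense neurons and TrkB a class of touch neurons, and glia and other cells also make TrkB that lacks the kinase. Ngfr encodes p75, which has no kinase, binds all neurotrophins and is made by sensory neurons and by Schwann cells. Sort1 encodes sortilin, a sorting receptor of the Golgi and endosomes, which joins p75 in binding uncleaved proneurotrophins and carries Trk receptors along axons.

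A value per gene sums the transcripts of that gene, and for 3 of the 4 genes these encode different proteins. In GENCODE M21 on GRCm38, Ntrk2 (ENSMUSG00000055254.15, chr13:58806569-59133970, plus strand) had 10 transcripts, 7 of them protein-coding, and Ntrk3 (ENSMUSG00000059146.12, chr7:78175959-78738012, minus strand) had 20, 6 of them protein-coding. Sort1 (ENSMUSG00000068747.14, chr3:108284082-108361511, plus strand) had 3 transcripts, 2 of them protein-coding, and Ngfr (ENSMUSG00000000120.6, chr11:95568818-95587735, minus strand) had 1. The coding sequences below show where the receptors with and without the kinase part ways, since the values cannot tell these forms apart. In each, lower-case bases are shared by the 2 transcripts shown for that gene, and capitals mark the first coding bases after they part. Other transcripts of the gene can hold the bases in capitals too. The Ntrk2-201 bases in capitals lie at chr13:58985803-58985862 and those of Ntrk2-202 at chr13:58932024-58932060, ending in its stop codon. The Ntrk3-201 bases in capitals lie at chr7:78260355-78260414 and those of Ntrk3-202 at chr7:78304367-78304426.
Ntrk2-201: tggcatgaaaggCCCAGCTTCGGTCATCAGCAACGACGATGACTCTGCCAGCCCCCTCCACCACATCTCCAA
Ntrk2-202: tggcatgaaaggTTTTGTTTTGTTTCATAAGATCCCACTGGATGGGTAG
Ntrk3-201: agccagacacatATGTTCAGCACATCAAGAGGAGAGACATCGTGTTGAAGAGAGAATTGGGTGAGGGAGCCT
Ntrk3-202: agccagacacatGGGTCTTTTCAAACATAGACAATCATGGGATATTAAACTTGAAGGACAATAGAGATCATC

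The 2 Ntrk2 transcripts shared their first 1394 coding bases. After them the full-length form had 1072 coding bases of its own, which hold the kinase, and the truncated form had 37. The 2 Ntrk3 transcripts shared 1585 coding bases, followed by 893 in the full-length form and 254 in the truncated form. The transcripts below differ from a close relative by whole exons that keep the reading frame, shown in capitals between the flanking bases. Ntrk3-205 has 42 bases (14 codons) that Ntrk3-201 lacks, at chr7:78204103-78204144, and Ntrk3-206 has a further 75 bases (25 codons) at chr7:78229487-78229561. Such inserts are known in the kinase of TrkC. Sort1-203 has 99 bases (33 codons) that Sort1-201 lacks, at chr3:108355472-108355570.
Ntrk3-205: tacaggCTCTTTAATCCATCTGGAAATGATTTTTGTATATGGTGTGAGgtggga
Ntrk3-206: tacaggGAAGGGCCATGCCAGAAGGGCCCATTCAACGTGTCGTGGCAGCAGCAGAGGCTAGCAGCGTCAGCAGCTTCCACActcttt
Sort1-203: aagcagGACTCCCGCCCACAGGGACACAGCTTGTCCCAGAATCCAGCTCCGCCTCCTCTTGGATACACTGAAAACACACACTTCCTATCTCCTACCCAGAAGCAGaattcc

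The deposited values were TPM, transcript abundances corrected for gene length and brought to one total per library. Read numbers cannot be recovered from them, and depth is unknown. The share of TPM in nuclear protein-coding genes was 9.58% to 13.3% for IN and 44.9% to 79.5% for IP, so the deposited TPM of the fractions are not on one scale. Each library was therefore divided by a factor that brings its median gene to the level of the other libraries, and levels below are these scaled TPM. A change is a log2 difference of scaled TPM plus 1, fitted by limma over 16099 genes with a mean deposited TPM of at least 1 in IN or in IP, and passes at a Benjamini-Hochberg adjusted p under 0.05. Changes are thus relative to the median gene. Scn10a, the gene of the Cre driver, was at 125 ± 12.4 in IN and 381 ± 46.8 in IP (SD, n = 8 each), and all 14 nociceptor markers rose in IP. Female pool 2 had an IP library that stood apart: nuclear protein-coding genes held 44.9% of its TPM, against 57.6% to 79.5% in the other IP libraries.

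Of the receptors, p75 was the one with more transcript among ribosome-bound RNA of Nav1.8-lineage neurons than in the whole ganglion, while TrkB, TrkC and sortilin had less. By the ratio of mean scaled TPM, which gives the folds of this paragraph and not the fitted change, Ngfr rose 1.88-fold in IP. Ntrk2 was 6.84-fold lower, Sort1 4.43-fold lower and Ntrk3 2.26-fold lower in IP, and in the deposited TPM without scaling the signs for Ntrk3 and Sort1 turned (log2 1.08 and 0.10, with the median of all genes at 1.84). All 4 genes passed, with 79.4% of all genes passing in this comparison, 40.5% higher and 38.9% lower. Each of the 4 kept its own sign in 8 of 8 pools, which was not counted over all genes. For all 4 the 8 IN and 8 IP libraries did not overlap, which was true of 48.4% of genes, 22.4% higher and 26% lower in IP. In ganglion RNA of this kind, fewer cells of a type and less RNA per cell cannot be told apart. IP differs from IN both in the cells that carry the tag and in the binding of RNA to ribosomes. These cannot be told apart here either, nor can RNA of untagged cells carried into IP.

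**Figure D1:**
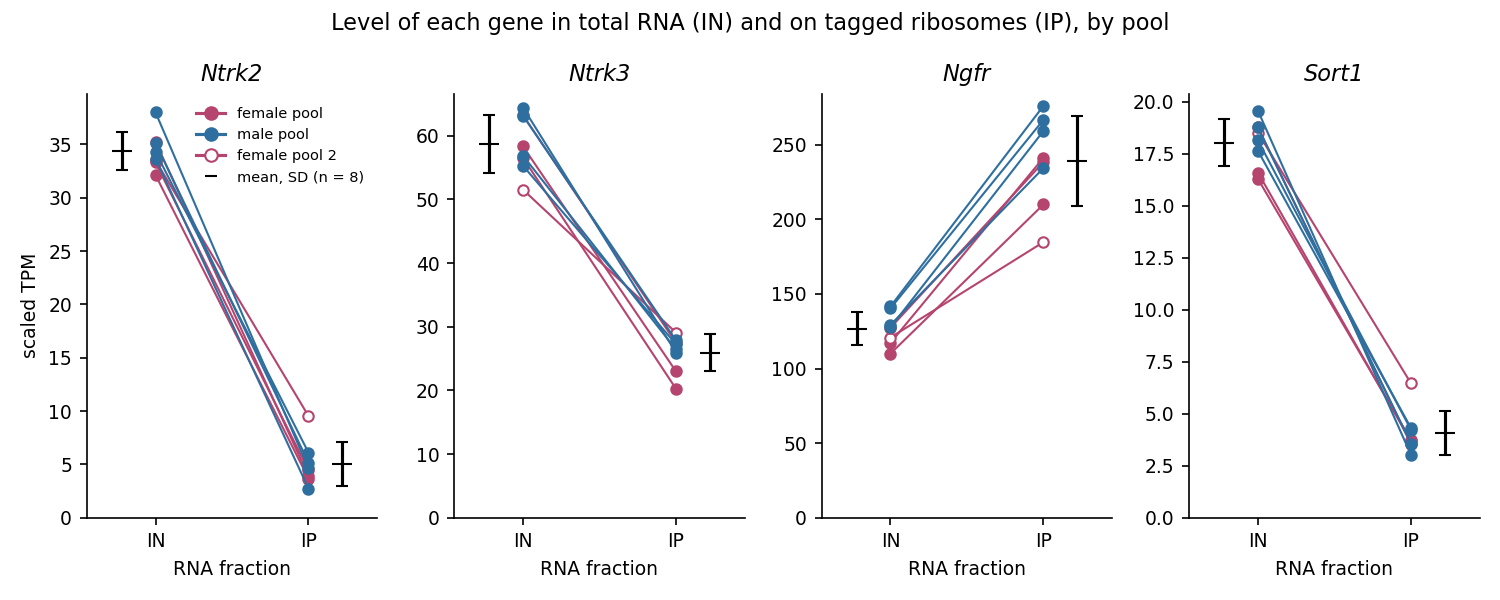
Scaled TPM of Ntrk2, Ntrk3, Ngfr and Sort1 in the IN and the IP library of each pool, with lines joining the libraries of a pool, by sex. Ngfr lies between 110 and 142 in IN and between 185 and 276 in IP, and the other 3 genes lie lower in IP in every pool.

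Ngfr, the receptor shared by all neurotrophins, had the highest level of the 4. In IN it was at 117, 121, 127 and 110 scaled TPM in female pools 1 to 4 and at 128, 142, 140.3 and 129 in male pools 1 to 4. In IP it was at 241, 185, 238 and 210 in the female pools and at 259, 276, 267 and 234 in the male pools, in the same order. The lowest IP library, that of female pool 2, was still above the highest IN library, that of male pool 2. The mean was 127 ± 10.8 in IN and 239 ± 30.1 in IP (SD, n = 8 each). The log2 change was 0.90 ± 0.05 (SE; 95% interval 0.78 to 1.02; limma adjusted p = 1.3e-07). It was above that of Ngfr in 754 of the tested genes, or 4.68%.

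Ntrk2, the TrkB gene, fell by the most. In IN it was at 32.1, 33.5, 35.2 and 33.3 scaled TPM in female pools 1 to 4 and at 35.1, 34.3, 38.0 and 33.7 in male pools 1 to 4. In IP it was at 3.69, 9.55, 3.92 and 4.45 in the female pools and at 5.18, 6.12, 4.63 and 2.74 in the male pools. IN libraries were close together, with a coefficient of variation of 5.15%, and IP libraries spread widely, at 41.4%, with female pool 2 the highest. The mean was 34.4 ± 1.77 in IN and 5.03 ± 2.08 in IP (SD, n = 8 each). The log2 change was -2.62 ± 0.14 (SE; 95% interval -2.92 to -2.31; limma adjusted p = 7.6e-08). Only 190 of the tested genes, 1.18%, had a lower change.

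Ntrk3, the TrkC gene, fell less and kept the highest IP level of the 3 genes that fell. In IN it was at 58.3, 51.5, 63.2 and 56.5 scaled TPM in female pools 1 to 4 and at 56.9, 63.2, 64.4 and 55.3 in male pools 1 to 4. In IP it was at 23.0, 29.1, 27.5 and 20.3 in the female pools and at 26.4, 27.9, 26.0 and 27.3 in the male pools. The male IP libraries were within 2 scaled TPM of each other, and the female ones held both the lowest and the highest value. The mean was 58.7 ± 4.54 in IN and 25.9 ± 2.89 in IP (SD, n = 8 each). The log2 change was -1.15 ± 0.07 (SE; 95% interval -1.30 to -1.01; limma adjusted p = 1.2e-07), and 1794 genes, 11.1%, had a lower one.

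Sort1 was the least abundant of the 4 genes in IN. It was at 16.3, 18.5, 18.8 and 16.6 scaled TPM in IN of female pools 1 to 4 and at 18.1, 17.7, 18.8 and 19.6 in IN of male pools 1 to 4. In IP it was at 3.74, 6.47, 3.55 and 3.67 in the female pools and at 4.24, 4.33, 3.57 and 3.03 in the male pools. As for Ntrk2, female pool 2 gave the highest IP value and male pool 4 the lowest. The mean was 18.0 ± 1.13 in IN and 4.08 ± 1.05 in IP (SD, n = 8 each). The log2 change was -1.93 ± 0.09 (SE; 95% interval -2.13 to -1.73; limma adjusted p = 5.2e-08), and 636 genes, 3.95%, had a lower one. An antisense gene, Gm12523, overlaps an exon of Sort1 and was listed at 0 in all 16 libraries. For the other 3, no exon of another gene overlaps the exons of their protein-coding transcripts, the only ones compared.

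In IN the order of the levels was Ngfr, Ntrk3, Ntrk2 and Sort1, and no neighbours in it had overlapping ranges. In IP the order of the means was the same, but the ranges of Ntrk2 and Sort1 overlapped, with Ntrk2 above Sort1 in 6 of 8 pools. Of the summed TPM of the 4 genes, Ngfr held 53.2% ± 1.40 in IN and 87.0% ± 2.75 in IP. The share of Ntrk3 was 24.7% ± 1.24 in IN and 9.55% ± 1.43 in IP. The share of Ntrk2 was 14.5% ± 0.597 in IN and 1.89% ± 0.965 in IP (SD, n = 8 each for all shares). In IP, then, p75 transcripts made up most of the set in every pool, the lowest share being 80.4%.

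**Figure D2:**
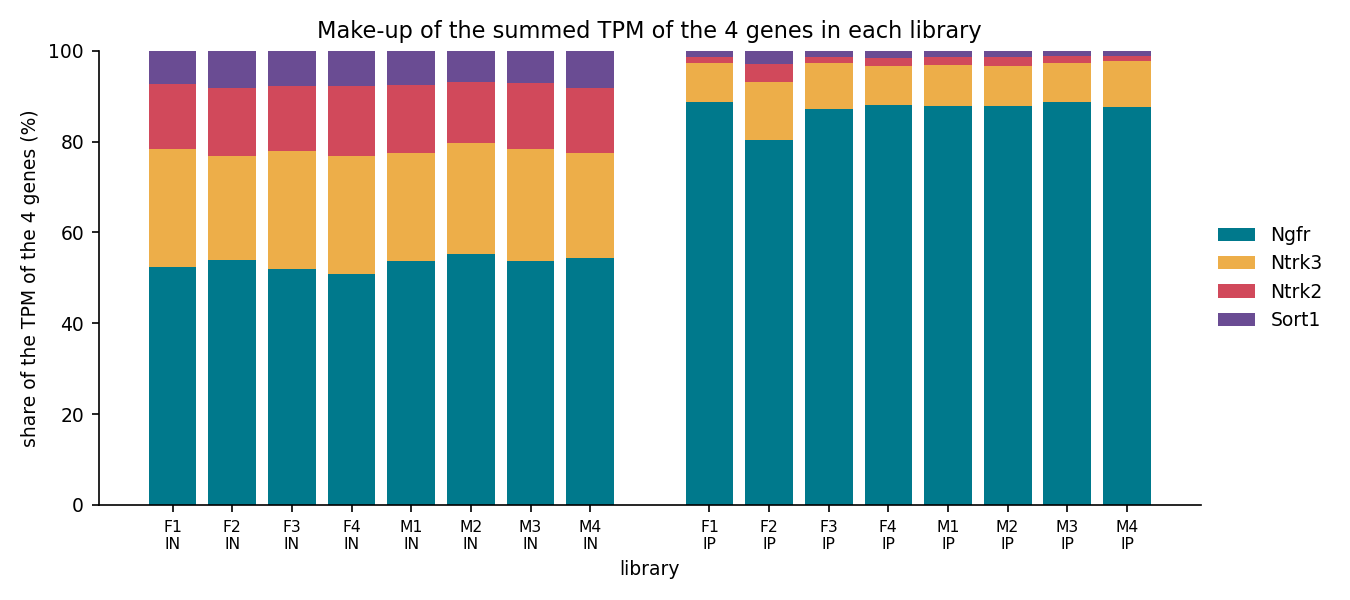
Share of each of the 4 genes in their summed TPM, in percent, for the IN and the IP library of each pool. Ngfr takes 53.2% on average in IN and 87.0% in IP, and its lowest IP share is 80.4%.

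Ratios between 2 genes within a library do not depend on a factor that divides the library, and each of the 6 pairs changed in one direction in 8 of 8 pools. The 6 ratios share 4 genes, so they are not independent results. How often pairs of other genes changed in this way was not tested, and 79.4% of all genes passed in IP against IN. Quantile normalization can alter such ratios, and they were not tested under it. The median ratio of Ntrk2 to Ngfr was 0.275 in IN and 0.0187 in IP, and by the mean log2 change over the pools, which gives all folds here, it fell 13.7-fold. The median ratio of Ngfr to Sort1 was 6.90 in IN and 64.1 in IP, with a mean rise of 8.49-fold. Ntrk3 to Ngfr fell 4.26-fold. Among the 3 genes that were lower in IP, the changes were unequal. Ntrk2 to Ntrk3 fell 3.21-fold, Ntrk2 to Sort1 fell 1.61-fold and Ntrk3 to Sort1 rose 1.99-fold. Each pair gave p = 0.0078 in a two-sided exact permutation test that flips the signs of the pools, adjusted p = 0.0078 over the 6 pairs, which is the smallest p that 8 pools can give.

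Both sexes gave the same signs as the whole. In the female pools the log2 change was 0.87 ± 0.09 for Ngfr (limma adjusted p = 0.00082), -2.52 ± 0.21 for Ntrk2 (0.00049), -1.18 ± 0.11 for Ntrk3 (0.0006) and -1.82 ± 0.13 for Sort1 (0.00047). In the male pools it was 0.94 ± 0.07 for Ngfr (limma adjusted p = 7.3e-05), -2.72 ± 0.15 for Ntrk2 (3.0e-05), -1.13 ± 0.07 for Ntrk3 (4.2e-05) and -2.03 ± 0.11 for Sort1 (2.7e-05; all SE). The deposited TPM turned the signs of Ntrk3 and Sort1 in each sex too. The 4 genes passed in both sexes, where 65.9% of all genes passed in the female and 70.4% in the male pools.

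No difference between the sexes passed for the 4 genes. In IN, 0 of the 4 passed with limma and 1 had an unadjusted p under 0.05, with 0.0808% of all genes passing. That gene was Ngfr, at 119 ± 7.23 in female and 135 ± 7.30 in male pools (SD, n = 4 each). Its log2 difference, female minus male, was -0.18 (95% interval -0.33 to -0.03; limma adjusted p = 0.96), and the sexes did not overlap, as was true of 2.83% of genes. The gap was small, with the highest female pool at 127.3 and the lowest male pool at 127.5. In the deposited TPM the sexes overlapped, at 46.1 to 63.3 in female and 52.6 to 61.4 in male IN libraries. In IP, 0 of the 4 passed with limma and 0 had an unadjusted p under 0.05, with 0.0497% of all genes passing. Ngfr was at 218 ± 26.6 in female and 259 ± 17.8 in male IP (SD, n = 4 each), and the sexes overlapped. Its IP difference was -0.25 (95% interval -0.50 to 0.00; limma adjusted p = 1). The sign for Ngfr was the same, lower in female pools, in both fractions.

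For the other genes the IN intervals of female minus male were narrow. They ran from -0.20 to 0.06 for Ntrk2, from -0.24 to 0.12 for Ntrk3 and from -0.22 to 0.07 for Sort1, on the log2 scale (limma adjusted p = 0.96 each). The IP intervals were wider, from -0.52 to 0.77 for Ntrk2, from -0.37 to 0.14 for Ntrk3 and from -0.26 to 0.53 for Sort1 (limma adjusted p = 1 each). The test of whether the IP change itself differed between the sexes gave 0.20 ± 0.28 for Ntrk2, -0.05 ± 0.14 for Ntrk3, -0.07 ± 0.11 for Ngfr and 0.21 ± 0.18 for Sort1 (SE; limma adjusted p = 1 each). Of the 4, 0 passed with limma and 0 had an unadjusted p under 0.05, with 0.0186% of all genes passing.

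Markers of other cell types moved between the fractions as well. All 10 satellite glia markers fell in IP, with a median log2 change of -2.49, and their summed level was 950 to 1263 scaled TPM in IN and 131 to 289 in IP. All 10 myelinating Schwann cell markers fell, with a median of -2.60, from Pmp22 at -1.64 to Ugt8a at -3.41, and their sum was 2463 to 3663 in IN and 401 to 1047 in IP. Of 13 genes listed as markers of large-diameter neurons, 11 fell, Spp1 the most at -3.26, and 1 rose, with a median of -1.37. Summed levels of this list ran from 820.02 to 988 for IN libraries and from 456 to 601 for IP libraries. Lpar3 was the gene that rose, at 1.80, which lay within the range of the nociceptor markers, 0.97 for Sst to 1.98 for Nppb. Whether Lpar3 marks large-diameter neurons in these ganglia was not tested, and its rise is not read as a rise of such neurons. None of the tested markers of these 3 lists was at 0 in all IP libraries. The median over all genes tested was 0.02, with 6514 higher and 6269 lower. The part of these cells in the values of Ntrk2, Ntrk3, Ngfr and Sort1 was not tested.

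The 14 nociceptor markers had a median log2 change of 1.51, from Sst at 0.97 to Nppb at 1.98, and a summed level of 993 to 1203 in IN and 2596 to 3681 in IP. Of 5 C-fibre touch markers 4 rose and 1 fell, and of 6 pan-neuronal markers 4 rose and 1 fell. Of 6 markers of non-myelinating Schwann cells, which are known to make p75, 3 rose, led by L1cam at 1.27, a gene that neurons also make, and 2 fell, led by Cdh19 at -2.97. Whether neurons also make the other genes of this list that rose was not tested, and the count is not read as a rise of such Schwann cells. All tested markers of fibroblasts (6), leptomeninges (4), endothelium (5), mural cells (4) and macrophages (5) fell. Among all genes tested, 40.5% rose and 38.9% fell.

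**Figure D3:**
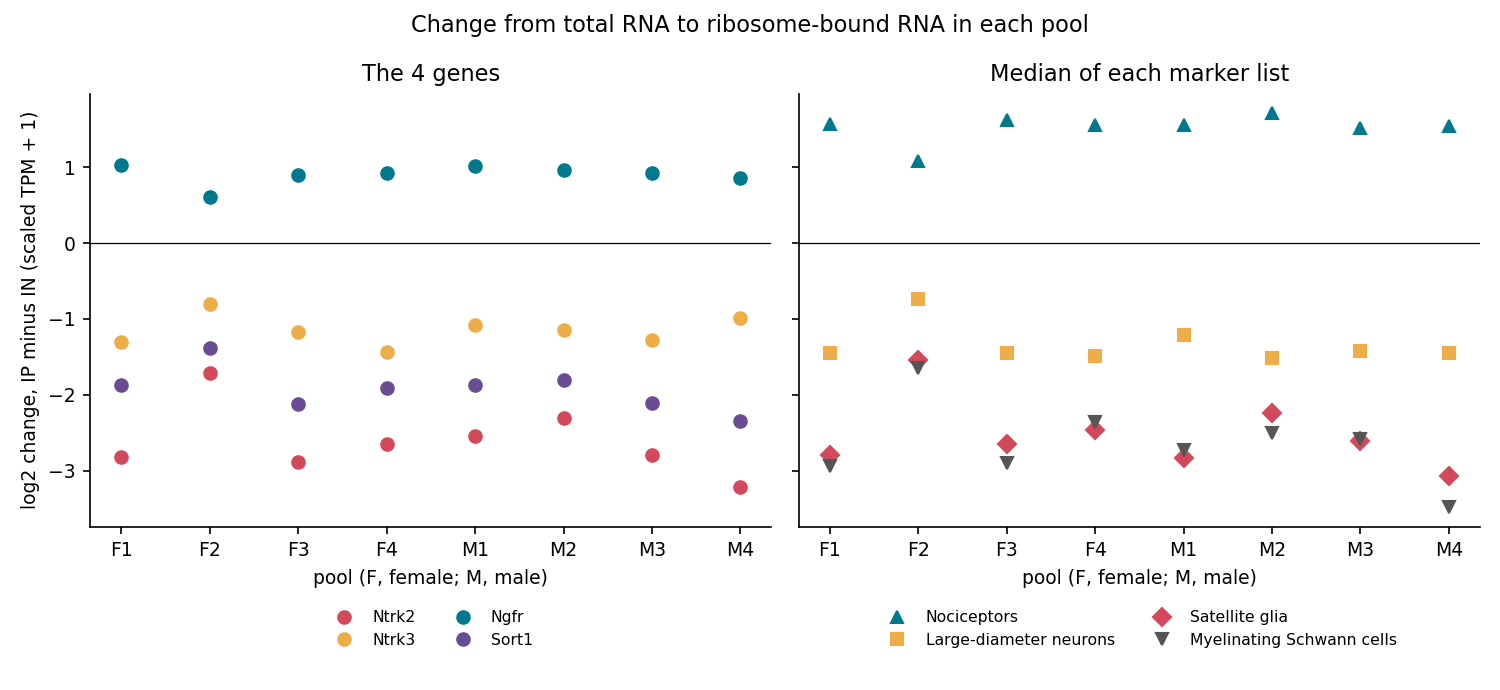
Log2 change from IN to IP in each pool for the 4 genes and for the medians of 4 marker lists (nociceptors, large-diameter neurons, satellite glia and myelinating Schwann cells). Female pool 2 lies nearest to 0 in every panel, at -1.71 for Ntrk2 and at -1.55 for satellite glia.

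Female pool 2 gave the smallest change of the 8 pools for each of the 4 genes. Its log2 change was -1.71 for Ntrk2, against -3.21 to -2.31 in the other pools, and -1.39 for Sort1, against -2.35 to -1.81. It was -0.80 for Ntrk3, against -1.43 to -0.99, and 0.61 for Ngfr, against 0.85 to 1.03. Its median change was also the nearest to 0 in 11 of the 12 marker lists, the exception being C-fibre touch neurons, at 0.82 with 0.53 to 0.95 in the others. The median was -1.55 for satellite glia in female pool 2 and -3.07 to -2.24 in the others, -1.65 for myelinating Schwann cells and -3.48 to -2.36 in the others, and -0.74 for large-diameter neurons and -1.51 to -1.22 in the others. For nociceptor markers it was 1.08, against 1.52 to 1.71. Without that pool, the changes over the other 7 were -2.75 for Ntrk2, -1.20 for Ntrk3, 0.94 for Ngfr and -2.01 for Sort1. The share of other cells' RNA in that library was not tested.

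The scale on which the fractions are compared sets the signs of Ntrk3 and Sort1, but not those of Ntrk2 and Ngfr. In the deposited TPM, Ntrk2 changed by -0.53 and Ngfr by 3.17 on the log2 scale, while Ntrk3 was at 1.08 and Sort1 at 0.10 (limma adjusted p = 0.41 for Sort1). The median of all genes was 1.84 there, and relative to it the values were -2.37, 1.34, -0.76 and -1.74 in the same order. Under quantile normalization they were -2.55 for Ntrk2, 0.58 for Ngfr, -1.37 for Ntrk3 and -1.76 for Sort1. With libraries scaled to the sum of nuclear protein-coding genes they were -2.83, 0.67, -1.38 and -2.13 in that order. Whether any of the 4 genes changed in amount per cell cannot be read from such values.

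**Figure D4:**
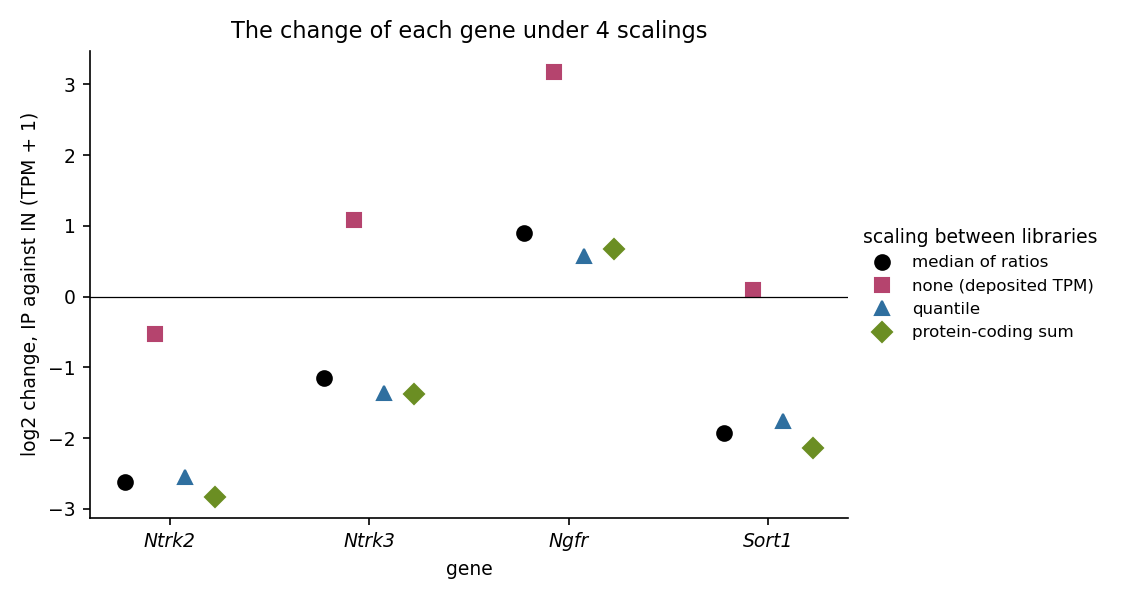
Log2 change from IN to IP of each of the 4 genes under 4 scalings of the libraries. Ngfr is above 0 and Ntrk2 below 0 under each, while Ntrk3 and Sort1 are above 0 with the deposited TPM (1.08 and 0.10) and below 0 with the others.

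Of 81 genes listed for the neurotrophin pathway, 77 were tested, 38 rose and 29 fell in IP, with a median log2 change of 0.15, beside 0.02 for all genes tested, of which 40.5% rose and 38.9% fell. With the protein-coding sum as the scale, 27 rose and 35 fell, beside 4399 and 8122 of the 16099 genes tested. With quantile normalization 35 rose and 30 fell, beside 7935 and 5044, and with the deposited TPM 72 rose and 2 fell, beside 14623 and 935. Without female pool 2, 37 rose and 29 fell, beside 6523 and 6287. Of the ligands, Bdnf was tested and rose by 0.51 ± 0.06 (SE; limma adjusted p = 1.1e-05), from 6.49 ± 0.812 scaled TPM in IN to 9.71 ± 1.54 in IP (SD, n = 8 each). Ntf3, at 0.182 in IN and 0.216 in IP, and Ntf5, at 0.0188 and 0.00862, were below the minimum level. Of 6 genes listed for proneurotrophin processing, 4 fell and 0 rose, with a median of -1.37. Those that fell included Pcsk6, a proprotein convertase, at -1.68 and Plat, tissue plasminogen activator, at -1.62. With the deposited TPM, 3 of the 6 rose and 2 fell, and Plat was at 0.23. With quantile normalization 1 rose and 4 fell, and with the protein-coding sum 0 rose and 6 fell.

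The relatives of sortilin did not move as one. Sorl1, a sorting receptor of endosomes, rose by 0.70 ± 0.04 (SE; limma adjusted p = 1.5e-07), from 56.5 ± 1.39 to 92.95 ± 6.09 scaled TPM (SD, n = 8 each). Sorcs1 fell by 2.09, from 17.7 ± 2.29 to 3.54 ± 1.51, and Sorcs2, which also binds proneurotrophins, fell by 1.64, from 6.23 ± 0.521 to 1.34 ± 0.376. Sorcs3 fell by 0.31 and was at 0.09 under quantile normalization. Of the 8 tested genes of this list, 4 rose and 3 fell, and among them Nts, the peptide neurotensin that sortilin binds, rose by 1.13. Among all genes tested, 40.5% rose and 38.9% fell. Of 11 genes for the sorting of sortilin and Trk receptors, 7 rose, among them the Golgi adaptors Gga2 at 0.65 and Gga3 at 0.59, and 2 fell, the retromer subunit Vps26a at -0.55 and Ehd4 at -0.28. Relative to the median gene, Ehd4 was at 0.02 with the deposited TPM. Of the 11 sorting genes, 4 rose and 3 fell with quantile normalization, and 4 and 3 with the protein-coding sum. With the deposited TPM, 11 rose and 0 fell.

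Partners of p75 were 9 higher and 5 lower of 14, with a median of 0.31. They were 7 higher and 6 lower with quantile normalization, 7 and 5 with the protein-coding sum, and 14 and 0 with the deposited TPM. Of all genes tested, 40.5% were higher and 38.9% lower in the main fit. Bex3, which binds the intracellular part of p75, rose by 1.32 and Arhgdia, which p75 also binds, by 1.06. Nradd, a p75 homologue, fell by 0.72 and Traf6, a ubiquitin ligase, by 0.63. Of the 7 genes for the cutting of p75 from the membrane, 4 rose and 2 fell. Counts were 5 and 2 with quantile normalization, 3 and 3 with the protein-coding sum, and 7 and 0 with the deposited TPM. Subunits of gamma-secretase, Psen2 and Ncstn, rose by 0.77 each, and the sheddases Adam17 and Adam10 fell by 1.51 and 1.36. With the deposited TPM, Adam17 was at 0.30 and Adam10 at 0.86, with the median of all genes at 1.84.

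**Figure D5:**
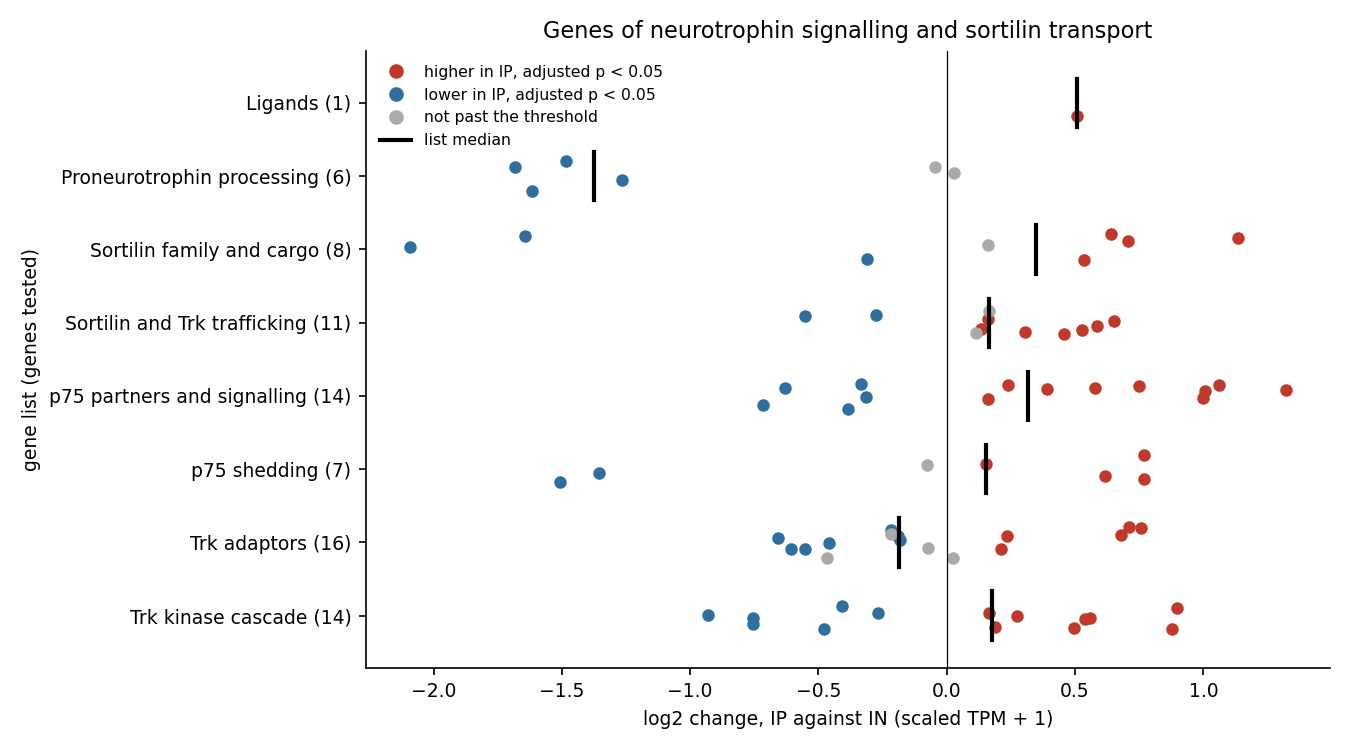
Log2 change from IN to IP of each tested gene in the 8 pathway lists. Members of most lists lie on both sides of 0, the genes listed for proneurotrophin processing have a median of -1.37, and the 77 tested genes have a median of 0.15.

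Adaptors that dock on activated Trk receptors gave 5 higher and 7 lower of 16, with a median of -0.19. They gave 7 and 7 with quantile normalization, 3 and 9 with the protein-coding sum, and 16 and 0 with the deposited TPM. Among all genes tested, 40.5% were higher and 38.9% lower in the main fit. Shc2 rose by 0.76 and Grb2 by 0.71, while Frs2 fell by 0.66 and Shc3 by 0.61. Grb2 had overlapping ranges, 12.1 to 37.2 scaled TPM in IN and 35.3 to 51.3 in IP. In the kinase cascade below the adaptors 8 rose and 6 fell of 14, with a median of 0.18. Quantile normalization gave 6 and 6 with a median of -0.07, and the protein-coding sum 5 and 6 with a median of -0.05. With the deposited TPM 14 rose and 0 fell. Mapk3, which encodes ERK1, rose by 0.90 and Map2k1, which encodes MEK1, by 0.88. Creb1, the transcription factor at the end of the cascade, fell by 0.93 and Rap1a, a small GTPase, by 0.75. Between the sexes, 0 of the 77 tested pathway genes passed with limma in either fraction, and 4 in IN and 3 in IP had an unadjusted p under 0.05. Of all genes tested, 0.0808% passed between the sexes in IN and 0.0497% in IP.

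The genes most like each of the 4 were sought by Pearson's r of log2 levels over the 16 libraries, among 12449 protein-coding genes. All such r include the difference between IN and IP, which the genes of a library share, and r was over 0.9 for 2983 genes with Ntrk2, 2768 with Ntrk3, 1608 with Ngfr and 2994 with Sort1. Ntrk2 was closest to Nid1 (r = 0.998), the basement membrane protein nidogen, Samd4 (0.998) and Timp3 (0.998), a metalloprotease inhibitor. Sort1 was closest to Hs3st2 (0.998), Dag1 (0.998), which encodes dystroglycan, and Plpp3 (0.997). Ntrk3 was closest to Rimkla (0.994), Clmp (0.993) and Tmed5 (0.991). Ngfr was closest to Sdc1 (0.993), which encodes syndecan, Ptgir (0.989), the prostacyclin receptor gene, and Nptx2 (0.989). With each group's mean removed, r was 0.972 for Ntrk2 with Nid1, 0.957 for Sort1 with Hs3st2, 0.917 for Ntrk3 with Rimkla and 0.918 for Ngfr with Sdc1. These pairs were picked by an r over the same 16 libraries that includes these deviations, so the values are not separate evidence. How far any single library sets them was not tested.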

How the data were processed

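Per the labels, RNA came from a Direct-zol elution and was sequenced after ribosomal RNA depletion (total RNA Gold). FastQC, STAR 2.2.1, StringTie 1.3.5 and the build GRCm38.p5 are named in the submitters' processing notes. Neither the annotation release nor the strandedness is stated there. The deposited column was taken as TPM, since each library sums to 1000000, although the column's header ends in Coverage. Rows sharing a gene ID were summed (17 to 21 per library), and 92 ERCC entries were left out. Scaling factors, medians of ratios over 15907 genes, were 0.375 to 0.532 for IN and 1.65 to 2.69 for IP. Models on log2(scaled TPM + 1) were fitted in limma 3.58.1 under R 4.3.3 with an intensity trend, two-sided, in 6 comparisons. IP against IN and the interaction had the pool as a block, because the series design text pairs the libraries. The correlation of deviations from group means within a pool was 0.0136 to 0.414 in female and 0.00665 to 0.323 in male pools. The fit was first tested on simulated data. Alternatives were other scalings, a pseudocount of 0.1, no minimum level, other blocks and leaving out each pool. The pathway counts under other scalings and without female pool 2 were chosen after seeing the data.

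The 4 genes and all gene lists were chosen with earlier results of these data known. Named genes were the 4 members, Scn10a, every ligand and sortilin relative, up to 4 genes of each other pathway list (the 2 largest changes each way), the largest and smallest change of each marker list, and the 3 genes most like each member. Some genes this rule allows are not reported here. Coding sequences and gene models came from GENCODE M21, which held 53274 of the IDs.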

Additional observations from a re-analysis of the deposited data

Results flagged for a closer look

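In the female IP group, the library of pool 2 lay far from the other 3 for 2 of the 4 genes. Ntrk2 was at 9.55 scaled TPM there, and its gap to the next library took up a share of 0.870 of the group's range. Sort1 was at 6.47, with a gap share of 0.934. Both shares are above the 95% critical value of Dixon's test for 4 samples. Chance gives such a value in about 1 of 20 groups, and 24 sets of 4 values were looked at. No other library and no change per pool met this criterion.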

How the results depend on the processing

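With the deposited TPM, Ntrk3 turned to 1.08 in both sexes together, 0.92 in female and 1.23 in male pools, and Sort1 to 0.10, 0.093 and 0.10. There the IN difference between the sexes turned to 0.058 for Ntrk2, 0.068 for Ntrk3 and 0.048 for Sort1, and the interaction to -0.035 for Ntrk2 and -0.011 for Sort1. That scale put the median gene at 1.84 in IP against IN (1.73 in female and 1.94 in male pools), at 0.094 for the sexes in IN and at -0.21 for the interaction. Of genes passing in IP against IN, 51.0% were higher, against 94.0% with deposited TPM, 61.1% with quantile normalization, 35.1% with the protein-coding sum and 32.8% of 21019 without a minimum level. The interaction had 3 genes passing, 11 with deposited TPM, 1 with quantile normalization and 0 without a minimum level (1121 at an unadjusted p under 0.05). With a replicate block, 8 genes passed between the sexes in IN, against 13, and 5 in IP, against 8. The replicate block changed no call of the 4 genes.

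Leaving out 1 pool gave -2.75 to -2.53 for Ntrk2, -1.20 to -1.11 for Ntrk3, 0.88 to 0.94 for Ngfr and -2.01 to -1.87 for Sort1. The sex difference in IP ran from -0.14 to 0.25 for Ntrk2 and from -0.034 to 0.20 for Sort1, both negative without female pool 2, and Ntrk2 was also at -0.06 without male pool 4. The interaction ran from -0.071 to 0.33 for Ntrk2 and from -0.13 to 0.016 for Ngfr, turning without female pool 2, and from -0.18 to 0.031 for Ntrk3, turning without female pool 4. Genes passing between the sexes in IP numbered 5 to 12, with 5 without female pool 2, male pool 1 or male pool 4, and for the interaction 0 to 6, with 0 without female pool 3 or male pool 1. The 6 ratios kept their sign and call with a pseudocount of 1 and with each pool left out, the only alternatives tried for them. Depth is unknown, so counting error could not be separated from the spread of the libraries.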
